A study of Mus musculus with 6 samples.

Results

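Bone morphogenetic proteins (BMPs) and growth and differentiation factors (GDFs) are secreted dimers of the TGF-beta superfamily. The data described here are the messenger RNA levels of 10 genes for such ligands in mouse growth cartilage: Bmp2, Bmp3, Bmp4, Bmp5, Bmp6, Bmp7, Bmp8a, Gdf5, Gdf6 and Gdf10. They were found by gene symbol, and all 10 were present among the 24346 symbols of the series. The series holds 6 RNA-seq libraries from laser-captured chondrocyte layers of the cartilage between 2 bones of the skull base, the spheno-occipital synchondrosis, and its text speaks of flat and of round chondrocytes. There are 3 libraries with the code FP and 3 with the code RR, and each code occurs with the numbers 11, 14 and 16. The labels do not define FP or RR, and both are used here as they stand.

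Every library, in both groups, came from mice labelled Gli1CreERT2; Tomato flox, in which a tamoxifen-dependent Cre is made where Gli1 is active, and which had been given tamoxifen on postnatal day 3. How old the mice were when the tissue was taken is not stated in these sources, and no untreated or Cre-negative group is part of the comparison. The labels do not say whether the libraries are from separate animals, so the p-values measure only how these samples spread, and that spread may be technical. The captures are bulk samples, in which fewer cells of a type and less RNA per cell cannot be told apart.

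BMP ligands are made as precursors, cut by convertases such as furin, and bind paired type I and type II serine/threonine kinase receptors. These phosphorylate SMAD1, SMAD5 and SMAD9, which switch on targets such as the Id genes, while secreted antagonists such as noggin and gremlin hold the ligands away from the receptors. In growth cartilage the pathway drives chondrocyte commitment, proliferation and hypertrophy. By kinship, Bmp3 pairs with Gdf10, also called Bmp3b, Bmp2 with Bmp4, and Gdf5 with Gdf6, and Bmp5, Bmp6, Bmp7 and Bmp8a form another branch.

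Levels are given in FPKM, which scales the fragments of a gene by its transcript length and by library size, so that genes can be set side by side. From the steps of low values, 1 fragment on a 2000 bp transcript was worth between 0.1275 FPKM (FP 11, the deepest) and 0.296 FPKM (RR 14, the shallowest), and 50.9% to 69.0% of a library's summed FPKM lay on small RNAs. Cartilage markers were high in all libraries (8 of 8 above 0 in each, summed at 51107 to 87636 FPKM in FP and 43936 to 91963 in RR). The summed level of 10 prehypertrophic and hypertrophic markers was 1112 to 1372 FPKM in FP and 132 to 199.9 in RR, that of 8 columnar markers 3055 to 3457 and 413 to 539, and that of 8 resting zone markers 528 to 789.6 and 3166 to 4468. Of these 3 lists, 7 of 10 and 4 of 8 genes were called higher and 6 of 8 lower in FP by limma as described below, against 0.967% of all genes tested. The lists were picked with earlier results of these libraries known, so their shares are a description. Grem1, given below among the antagonists, is also in the resting zone list. Apoe (mean 2566 FPKM) was most of the resting zone sum in RR, and Comp (mean 2589 FPKM) most of the columnar sum in FP. Foxa2, listed for the resting zone, was instead higher in every FP than in any RR library (limma adjusted p = 0.0511). Mmp13, Ucma, Matn1 and Mki67 overlapped between the groups. The part of these markers in the differences of Bmp3, Gdf5 and Gdf10 was not tested.

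Of the 10 ligands, Bmp3 and Gdf5 were lower in FP than in RR and Gdf10 was higher. Gdf10 and Bmp3, a pair by kinship, went opposite ways: Gdf10 was 7.85-fold higher and Bmp3 21.1-fold lower in FP by their mean FPKM. Bmp6 had a mean FPKM in FP 7.02 times that in RR but missed the threshold in this fit, which did not pair libraries by number. Of the 9 ligands whose mean over all 6 libraries reached 1 FPKM, 1 was called higher and 2 lower by limma on log2(FPKM + 1) at a Benjamini-Hochberg adjusted p under 0.05. Over all 14789 genes tested in the same way, 0.967% were called, 0.554% higher and 0.412% lower. Those were 82 genes higher and 61 lower, against 74 and 84 when libraries were rescaled without small RNAs and the 100 highest genes. The FP and RR values did not overlap for 6 of the 9 tested ligands, against 16% of all genes tested (8.74% with FP higher and 7.28% with FP lower). The ligands were picked with earlier results of these libraries known, so their share is a description. At an unadjusted p under 0.05 there were 6 of the 9 tested ligands and 1526 of all 14789 genes. The median log2 change was -0.20 over the 9 tested ligands and 0.02 over all genes tested.

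**Figure D1:**
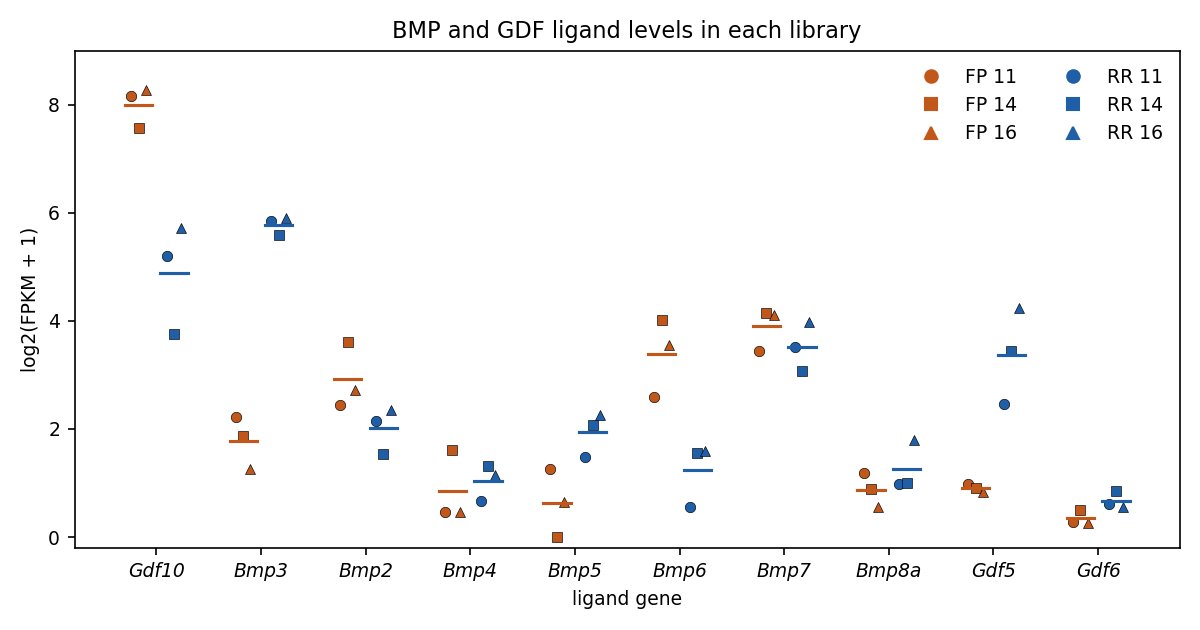
Level of each ligand in every library as log2(FPKM + 1), with FP in orange, RR in blue, a symbol for each library number and a bar for the mean of the 3 values. Gdf10, Bmp6 and Bmp2 lie higher in the FP libraries, Bmp3, Bmp5, Gdf5 and Gdf6 lie higher in the RR libraries, and the groups overlap for Bmp4, Bmp7 and Bmp8a.

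Bmp3 codes for an atypical family member known for opposing the bone-forming BMPs. It stood at 56.5, 47.1 and 58.8 FPKM in RR libraries 11, 14 and 16, and at 3.64, 2.68 and 1.38 FPKM in FP 11, FP 14 and FP 16. The RR values lay close together (54.2 ± 6.21 FPKM, SD, n = 3) and every one was far above every FP value (2.57 ± 1.14 FPKM). The log2 change, FP minus RR, was -4.00 ± 0.31 (SE, limma adjusted p = 0.00197), with a 95% interval from -4.69 to -3.30, and only 5 of all tested genes fell further. Leaving out any single library kept the call (adjusted p up to 0.0182), and leaving out both libraries numbered 14 ended it (0.0501). About 526 to 1118 fragments lay behind each RR value and 24.5 to 94.5 behind each FP value, taking the longest transcript of 6609 bp. On mm10, Bmp3 lies on the plus strand of chromosome 5 (98854415 to 98884396), and that transcript has 3 exons.

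Gdf10 codes for a secreted factor near in sequence to BMP3. It was the most abundant of the ligands in FP, at 286, 189 and 306 FPKM in FP 11, FP 14 and FP 16, and stood at 35.6, 12.5 and 51.4 FPKM in RR libraries 11, 14 and 16. The groups did not overlap, RR 14 was the lowest library and FP 14 the lowest of the FP group. The means were 260.4 ± 62.9 and 33.2 ± 19.6 FPKM (SD, n = 3 each). The log2 change was 3.11 ± 0.49 (SE, limma adjusted p = 0.0261; 95% interval 2.0 to 4.22), the 37th largest rise among the tested genes. The call was lost without FP 11, RR 11, FP 14 or FP 16 (adjusted p = 0.0775, 0.0542, 0.0673 and 0.136), while the change itself stayed between 2.55 and 3.53. It was also lost without an intensity trend in the variance (adjusted p = 0.0520), and without both libraries of any 1 number (up to 0.203).

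Gdf10 lies on the plus strand of chromosome 14 (33923587 to 33937983), in 3 exons on mm10. Start site sequences from RefSeq (GRCm38.p6) were at hand for 5 of the 10 ligands (Bmp4, Bmp5, Bmp6, Bmp8a and Gdf10). The 250 bases before the start are shown for Gdf10, called higher in FP. They are also shown for Bmp5, lower in FP but not called (limma adjusted p = 0.315). Both run 5′ to 3′ on the coding strand, from chr14:33923337-33923586 and chr9:75775115-75775364. Of the 5 stretches, these had the highest and the lowest share of G and C. Capitals mark GC boxes (GGGCGG, or its reverse complement).
Gdf10: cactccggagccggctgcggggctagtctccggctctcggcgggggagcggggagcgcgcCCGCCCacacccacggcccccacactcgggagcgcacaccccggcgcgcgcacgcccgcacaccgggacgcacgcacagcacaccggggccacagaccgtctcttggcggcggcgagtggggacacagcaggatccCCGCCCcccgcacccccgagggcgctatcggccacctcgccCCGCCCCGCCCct
Bmp5: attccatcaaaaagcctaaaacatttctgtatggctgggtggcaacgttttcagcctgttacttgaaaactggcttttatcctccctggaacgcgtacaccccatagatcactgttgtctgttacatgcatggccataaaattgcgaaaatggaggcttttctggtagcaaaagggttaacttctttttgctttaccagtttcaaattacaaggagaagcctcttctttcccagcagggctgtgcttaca
The Gdf10 stretch was 78.8% G and C, with 35 CpG dinucleotides and 4 GC boxes, of which 2 share a base. The Bmp5 stretch was 42.8% G and C with 4 CpG dinucleotides and 0 GC boxes. Over 32851 stretches of the same length the median was 52.4% G and C and 6 CpG, and 32.7% held a GC box. The search, on both strands, also covered the TATA box TATAAA (held by 12.4% of all stretches), the GC-rich SMAD element GGCGCC (by 9.59%), the RUNX core TGTGGT (by 14.05%) and the GLI site GACCACCCA (by 0.225%), and found 0 of these in both stretches. The same stretches of Bmp6, Bmp4 and Bmp8a lay between, at 68.8%, 63.2% and 62.0% G and C with 1, 1 and 2 GC boxes. That of Bmp6 (chr13:38345466-38345715) precedes the RefSeq start but lies inside the GENCODE gene, which begins at 38345107. These matches describe the letters and are not binding sites. Of the ligands between, Bmp6 had a positive log2 change and Bmp4 and Bmp8a negative ones, all not called. Any relation of these letters to the changes was not tested.

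Together Gdf10 and Bmp3 made up most of the ligand messages in every library, and their balance was turned around between the groups. Gdf10 took 91.3%, 79.1% and 89.4% of the summed FPKM of the 10 ligands in FP libraries 11, 14 and 16, and 31.0%, 14.3% and 32.8% in RR. Bmp3 took 1.16%, 1.12% and 0.403% in FP, and 49.2%, 54.1% and 37.5% in RR. The ratio of Gdf10 to Bmp3 FPKM was thus 78.4, 70.6 and 222 in FP and 0.629, 0.265 and 0.874 in RR. The sum of all 10 ligands was 313, 239 and 343 FPKM across FP against 115, 87.2 and 157 across RR. With Gdf10 and Bmp3 set aside, the other 8 summed to 23.6, 47.3 and 35.0 FPKM across FP against 22.7, 27.6 and 46.7 across RR, ranges that overlap. The shares, ratios and sums are descriptions without a test. Since Gdf10 and Bmp3 had the largest changes of the ligands, in opposite directions, shares and ratios apart between the groups were bound to follow.

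**Figure D2:**
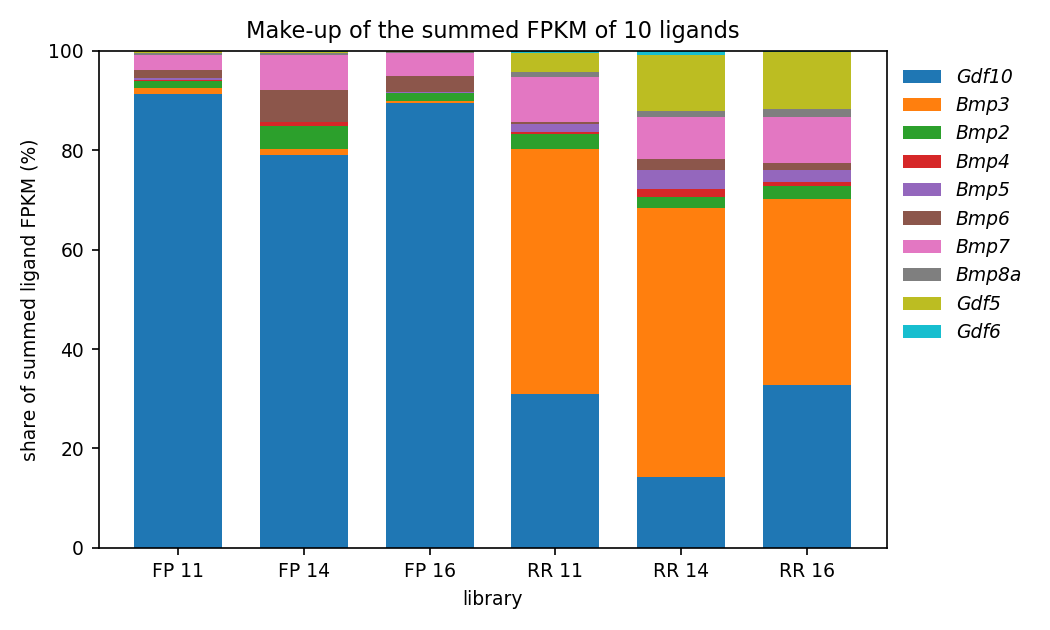
Share of each ligand in the summed FPKM of the 10 ligands, in percent, with a stacked bar for each library. Gdf10 fills 79.1% to 91.3% of the FP bars, and Bmp3 is the largest block of each RR bar at 37.5% to 54.1%.

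Gdf5 codes for the growth factor known for joint formation, where it marks the interzone between cartilage elements. It stood at 4.48, 9.85 and 17.9 FPKM in RR libraries 11, 14 and 16, and at 0.982, 0.867 and 0.793 FPKM in FP. The FP values were low and even, while the RR values spread 3.99-fold, and the groups did not overlap. The means were 10.7 ± 6.74 in RR and 0.881 ± 0.0953 FPKM in FP (SD, n = 3 each), a 12.2-fold difference, and each FP value rested on only 3.99 to 8.93 fragments. The log2 change was -2.47 ± 0.43 (SE, limma adjusted p = 0.0395; 95% interval -3.45 to -1.49). The call was lost without FP 11, FP 14, RR 14, FP 16 or RR 16 (adjusted p = 0.10, 0.135, 0.160, 0.161 and 0.107), and held without RR 11 (0.0139). It was also lost with no filter or a filter set to 5 FPKM (0.0779 and 0.0821), after quantile normalization (0.0519) and with no intensity trend (0.0670), all limma adjusted p. Without both libraries numbered 14 or both numbered 16 its adjusted p was 0.392 and 0.357. Gdf5 lies on the minus strand of chromosome 2 (155941023 to 155945367). Of its 2320 exon bases, 936 overlap exons of Gm15557 on the opposite strand, and since strand use in counting is not given, reads there cannot be assigned.

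Gdf6, its relative and also a factor of joints, was the lowest of the ligands in mean FPKM in both groups. It was at 0.208, 0.413 and 0.201 FPKM in FP 11, FP 14 and FP 16 and at 0.527, 0.801 and 0.473 in RR. All RR values were above all FP values, but they stood for about 4.78 to 4.80 fragments against 1.91 to 2.89. With a mean of 0.437 FPKM it did not enter the test, and with no filter its log2 change was -0.33 ± 0.26 (SE, limma adjusted p = 0.804).

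In the branch of Bmp5, Bmp6, Bmp7 and Bmp8a, 0 of 4 genes passed the threshold in limma, with 2 at an unadjusted p under 0.05, and these 2, Bmp6 and Bmp5, lay in opposite directions. Bmp6 codes for a ligand known from hypertrophic cartilage. It was at 5.01, 15.1 and 10.8 FPKM in FP 11, FP 14 and FP 16 and at 0.476, 1.93 and 2.0 FPKM in the RR libraries. Every FP value was above every RR value, and FP 11 was the lowest of its group, as RR 11 was of the other. The means were 10.3 ± 5.08 and 1.47 ± 0.860 FPKM (SD, n = 3 each), and each RR value rested on only 4.40 to 20.6 fragments. The log2 change was 2.15 ± 0.44 (SE, limma adjusted p = 0.0758; 95% interval 1.15 to 3.15). Bmp6 passed in 5 of 22 alternative fits. It did so without FP 11 (adjusted p = 0.0435), with robust eBayes (0.0494) and with library weights (0.0396). The remaining passes came with the library number as a fixed or a random block (limma adjusted p = 0.0127 and 0.0104). Bmp6 (plus strand of chromosome 13, 38345107 to 38500302) shares 224 of its 3593 exon bases with Txndc5 on the opposite strand, which stood at 89.6 to 109.8 FPKM in FP and 43.5 to 72.8 in RR, and the part of those reads in the Bmp6 values was not tested.

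Bmp5 codes for a ligand known for shaping skeletal elements. It was at 1.81, 3.21 and 3.79 FPKM in RR libraries 11, 14 and 16, and at 1.39 and 0.576 FPKM in FP 11 and FP 16, while FP 14 listed it at 0. The groups did not overlap, though FP 11 and RR 11 were close, and each FP value rested on only 0 to 20.8 fragments. The log2 change was -1.30 ± 0.44 (SE, limma adjusted p = 0.315; 95% interval -2.30 to -0.31). Of its 3822 exon bases, 1878 overlap Gm26903 on the opposite strand. The ratio of Bmp6 to Gdf5, the ligands next to Gdf10 and Bmp3 in the size of their opposite changes, was 5.10, 17.5 and 13.6 in FP and 0.106, 0.196 and 0.112 in RR. Since the pair was picked by these changes, a ratio apart between the groups was bound to follow, and it is a description without a test.

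Bmp7, a ligand known from proliferating chondrocytes, had the 2nd highest mean in FP and the 3rd highest in RR. It was at 9.84, 16.8 and 16.2 FPKM in FP 11, FP 14 and FP 16 and at 10.4, 7.39 and 14.7 FPKM in RR. The groups overlapped, and the log2 change of 0.38 ± 0.33 (SE, limma adjusted p = 0.783) had a 95% interval from -0.37 to 1.13, which does not show that the groups were alike. Bmp8a, a ligand best known from germ cells, was at 1.28, 0.848 and 0.466 FPKM across FP against 0.974, 0.988 and 2.48 across RR, on 3.0 to 17.1 fragments per library. The groups overlapped (log2 change -0.38 ± 0.42, SE, limma adjusted p = 0.840; 95% interval -1.34 to 0.58). Bmp8b, a near copy of Bmp8a, was at 0 to 0.585 FPKM, and how the counting divided reads between the pair is not given.

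Bmp2 and Bmp4, the classic bone-inducing ligands, were low. Bmp2 was at 4.46, 11.2 and 5.58 FPKM in FP 11, FP 14 and FP 16 and at 3.44, 1.90 and 4.12 FPKM in RR. The groups did not overlap, but FP 11 (4.46) and RR 16 (4.12) lay side by side and FP 14 alone was high. The log2 change of 0.91 ± 0.38 (SE) did not pass (limma adjusted p = 0.451; 95% interval 0.053 to 1.76). Bmp4 was at 0.386, 2.04 and 0.374 FPKM across FP against 0.587, 1.49 and 1.23 across RR, on 2.07 to 8.37 fragments per library. Its groups overlapped, and the interval of its log2 change (-0.20 ± 0.48, SE; 95% interval -1.30 to 0.89, limma adjusted p = 0.947) allows sizeable changes either way.

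**Figure D3:**
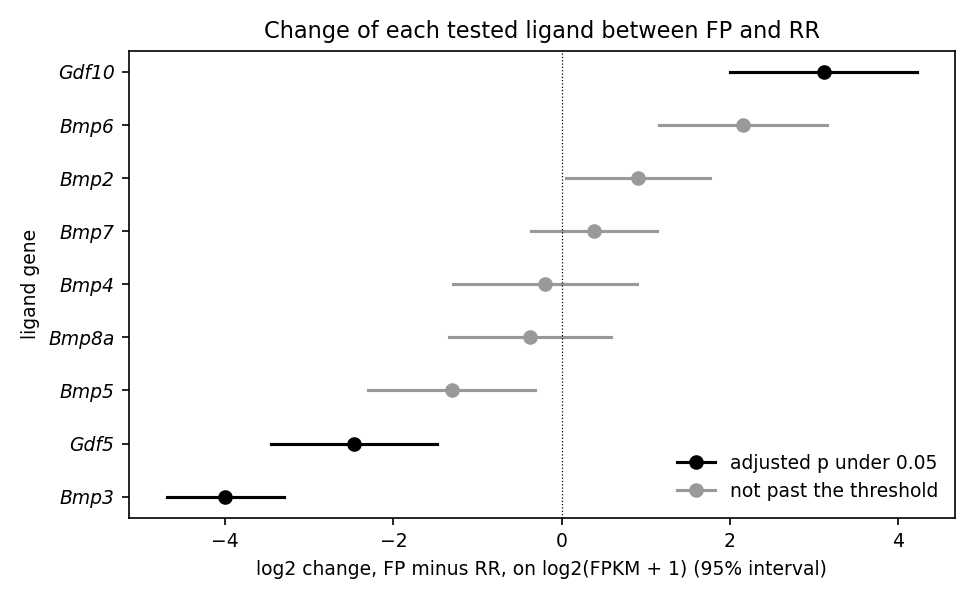
Log2 change, FP minus RR, of the 9 tested ligands on the log2(FPKM + 1) scale, as points with 95% intervals from limma, black where the adjusted p was under 0.05. Gdf10 lies at 3.11, Gdf5 at -2.47 and Bmp3 at -4.00, and the intervals of Bmp4, Bmp7 and Bmp8a span 0.

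By level, the order in FP was Gdf10, Bmp7, Bmp6, Bmp2, Bmp3, Bmp4, Gdf5, Bmp8a, Bmp5 and Gdf6. Only the steps from Gdf10 to Bmp7 and from Bmp2 to Bmp3 separated neighbours whose 3 values did not overlap. In RR the order was Bmp3, Gdf10, Bmp7, Gdf5, Bmp2, Bmp5, Bmp8a, Bmp6, Bmp4 and Gdf6, and only Gdf5 and Bmp2 were neighbours with values apart. Bmp3 and Gdf10 overlapped in RR, since Gdf10 reached 51.4 FPKM in RR 16 and Bmp3 was at 47.1 in RR 14. Bmp3 thus moved from place 1 in RR to place 5 in FP, and Bmp6 from place 8 to place 3.

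The other parts of the pathway were described with lists that were also picked with earlier results known. Of 11 further family ligands, 4 were tested and 0 called by limma (0 at an unadjusted p under 0.05; median log2 change -0.75, against 0.02 over all genes tested). Gdf1 and Gdf7 came closest, at log2 changes of -1.12 ± 0.55 and -0.95 ± 0.61 (SE), and Gdf7, a relative of Gdf5, was listed at 0 in FP 11 and FP 16. Of 11 receptors and co-receptors, 10 were tested, all but Acvr2b, and 0 were called (1 at an unadjusted p under 0.05; median -0.15). That was Bmpr1b, the type I receptor favoured by GDF5, at 3.63, 1.29 and 2.76 FPKM in FP 11, FP 14 and FP 16 and 9.88, 4.17 and 7.70 in RR. Its groups did not overlap, and the log2 change was -1.21 ± 0.38 (SE, limma adjusted p = 0.283). Rgma, a BMP co-receptor, was at 14.2 ± 3.30 FPKM over the FP and 9.37 ± 3.59 over the RR libraries (SD, n = 3 each; limma adjusted p = 0.645).

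Of 15 secreted antagonists and carriers, 11 were tested, 1 was called higher and 1 lower by limma (2 at an unadjusted p under 0.05), with a median of -0.21. Over all genes tested, the shares called higher and lower were 0.554% and 0.412%. The noggin gene Nog had 11.4, 18.9 and 20.5 FPKM across the FP libraries against 0.612, 0.620 and 1.28 across RR. The gremlin gene Grem1 had 1.12, 0.637 and 3.26 FPKM across FP against 21.5, 27.5 and 29.4 across RR. Antagonists thus also lay on both sides, Nog at a log2 change of 3.27 ± 0.31 and Grem1 at -3.45 ± 0.37 (SE, limma adjusted p = 0.00345 and 0.00554). Both passed when any single library was left out, but Nog was lost without both libraries numbered 14 or 16 (0.0631 and 0.0757) and Grem1 without both numbered 11 or 14 (0.0607 and 0.0730). Of 7 convertases and BMP1-like proteases, 6 were tested, all but Tll2, and 0 called (1 at an unadjusted p under 0.05; median 0.047). Pcsk6, the convertase PACE4, was at 18.3 ± 2.98 FPKM over the FP and 8.59 ± 1.04 over the RR libraries (SD, n = 3 each; limma adjusted p = 0.159), and Pcsk5 at 1.56 ± 0.269 and 3.01 ± 1.01 FPKM (adjusted p = 0.576).

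Of 12 SMAD and feedback genes, all tested, 0 were called by limma (4 at an unadjusted p under 0.05; median 0.31), while 11 had a positive estimate, as had 7634 of all 14789 genes tested. With the library number as a random block 3 of these genes were called higher, and with a fixed block 0. Bambi, a decoy receptor that BMP signalling induces, was at 6.01, 7.48 and 7.07 FPKM across FP against 1.45, 2.1 and 3.06 across RR (log2 change 1.32 ± 0.29, SE, limma adjusted p = 0.0950). Smad9, a BMP-responsive SMAD, was at 7.08 ± 0.930 FPKM over the FP and 2.59 ± 1.06 over the RR libraries (SD, n = 3 each; adjusted p = 0.162). Of 12 BMP targets, 10 were tested (not Msx2 and Gata2), 2 were called higher and 0 lower, with a median of 0.96. Over all genes tested, 0.554% were called higher and 0.412% lower. At an unadjusted p under 0.05 by limma there were 5 of the 10 tested targets. The FP and RR values did not overlap for 5 of the 10, against 16% of all genes tested. Id3, an inhibitor of basic helix-loop-helix factors, was at 37.1, 89.0 and 57.1 FPKM across the FP libraries against 8.87, 13.5 and 5.87 across RR. Dlx5, a homeobox factor of chondrocyte maturation, had 48.7, 25.4 and 27.4 FPKM across FP against 6.97, 3.97 and 5.73 across RR. Their log2 changes were 2.56 ± 0.40 and 2.37 ± 0.33 (SE, limma adjusted p = 0.0256 and 0.0160). The Id3 call was lost without RR 11, FP 14, FP 16 or RR 16 (adjusted p = 0.0692, 0.0943, 0.124 and 0.0851), with quantile normalization (0.0652) and without an intensity trend (0.0520), and the Dlx5 call without RR 14, FP 16 or RR 16 (0.0653, 0.0729 and 0.0646). Both were also lost without both libraries of any 1 number (adjusted p up to 0.357 and 0.259).

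**Figure D4:**
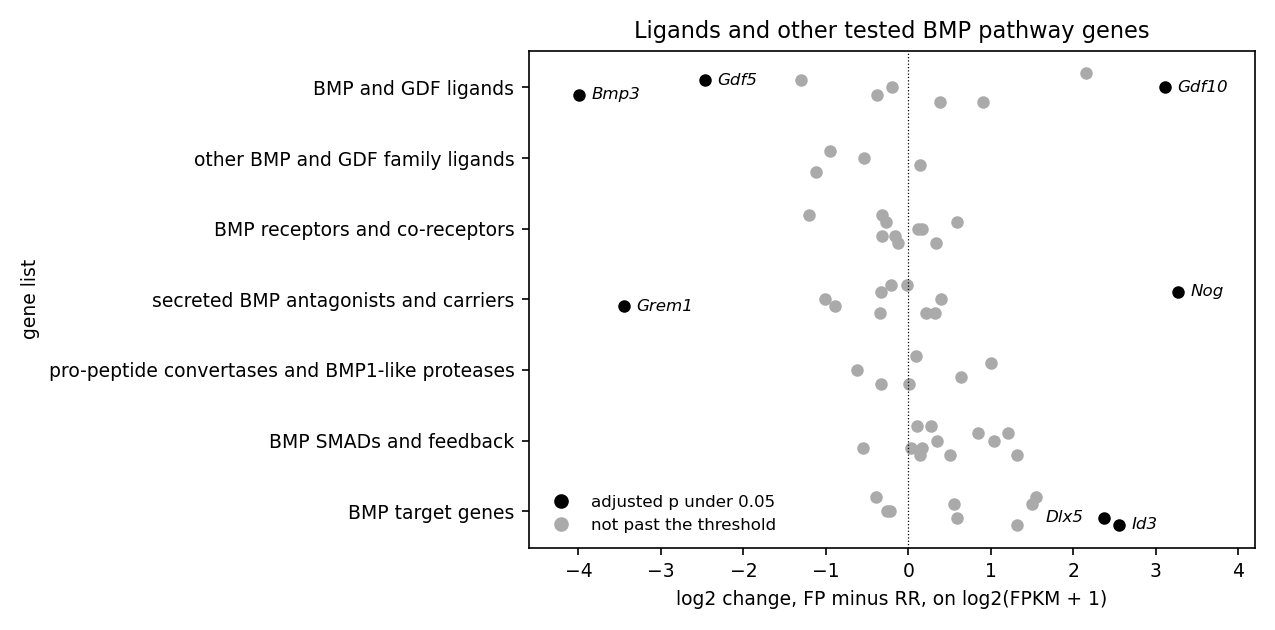
Log2 change, FP minus RR, on the log2(FPKM + 1) scale of every tested gene in the ligand list and in 6 other lists of the BMP pathway, 1 point per gene, with black points and names for adjusted p under 0.05. The called ligands and antagonists lie on both sides of 0 (Bmp3 at -4.00, Gdf10 at 3.11, Grem1 at -3.45 and Nog at 3.27), and the called targets Id3 and Dlx5 lie above it.

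Other cell types that the captures could hold were checked by their markers. Summed FPKM ran from 238 to 892 in FP and 227 to 1656 in RR for 8 osteoblast and osteocyte markers (with Bglap, Bglap2 and Sost at 0 in some library), from 49.9 to 101 and 57.2 to 109 for 8 perichondrial and fibroblast markers, and from 119 to 208 and 31.2 to 198 for 8 skeletal muscle markers (Actn3 at 0 in some library). They ran from 67.5 to 128 and 34.9 to 174 for 8 osteoclast and macrophage markers (Lyz2 and C1qa at 0 in some library), from 6.64 to 10.1 and 6.41 to 18.01 for 6 endothelial markers, and from 121 to 146 and 47.5 to 495 for 6 of 7 listed blood and marrow markers (S100a8 and S100a9 at 0 in some library). The FP and RR ranges of the sums overlapped for each of these 6 lists, and 0 of their tested genes were called by limma, with 3 muscle and 2 perichondrial genes at an unadjusted p under 0.05. All 8 muscle markers had a positive estimate (median log2 change 1.48), and their sum reached into the FP range only in RR 11 (198 FPKM, against 31.2 and 41.5 in RR 14 and RR 16). Myh8, a muscle myosin, had a mean of 10.9 FPKM in FP and 2.17 in RR, with groups that overlapped. Actn3 was higher in every FP library than in any RR library (means 2.98 and 0.502 FPKM, limma adjusted p = 0.271). Pdgfra and Ly6a, found in fibroblasts, were lower in every FP library than in any RR library (FP means 6.81 and 2.29 FPKM, RR means 13.05 and 7.31; adjusted p by limma 0.333 and 0.274). All 5 tested endothelial markers had a negative estimate, and Tek was lower in every FP library than in any RR library (means 0.861 and 1.67 FPKM, limma adjusted p = 0.711). RR 11 had the highest osteoblast sum (1656 FPKM, next FP 11 at 892) and the highest blood and marrow sum (495, next FP 11 at 146). Without RR 11, Bmp3 and Gdf5 passed and Gdf10 did not, as given above, and the part of these other cell types in the ligand differences was not tested.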

How the data were processed

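The deposited files hold FPKM per gene symbol (24346 symbols), each file 1 library, per the file headers. The submitters' processing notes name TopHat2 2.1.1, Bowtie2 2.2.8, SAMtools 0.1.18, Cuffdiff 2.2.1 and build mm10. What each tool did, the annotation, scaling between libraries and strand use are not stated there. Total RNA came from laser-captured frozen sections and went into a stranded low-input library kit, per the labels' protocols.

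Genes whose mean over all 6 libraries reached 1 FPKM (14789) entered limma 3.58.1 (R 4.3.3; lmFit, eBayes, intensity trend) as log2(FPKM + 1), FP minus RR, two-sided, with Benjamini-Hochberg adjustment over all of them. This scale understates changes of low genes, and folds are ratios of mean FPKM. The members and the gene lists were chosen with earlier results of these data known. All 10 members are named. In the other lists, genes past the threshold are named, otherwise up to 2 with the smallest p. The fit was tested on simulated data, with changes set in genes of a mean above 5 FPKM. It called 2%, 55.6%, 95.2% and 98.8% of log2 changes of 1, 2, 3 and 4, and 0.0439% of unchanged genes. The simulated spread was set by the level of a gene, with independent noise in each library. Rates in the real data may therefore be less favourable. A gene that was not called may thus still differ.

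Fragments per value were read from the steps of low FPKM in 3524 genes that have just 1 transcript in GENCODE M21 (basic set), 1500 to 3000 bp long. Of values up to about 4 fragments, 70.1% to 73.9% were whole within 0.1, against 20% by chance. They are approximate for genes with several transcripts, and total depth is unknown. Coordinates are from GENCODE M21 on mm10.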

Additional observations from a re-analysis of the deposited data

How the results depend on the processing

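The log2 changes of the tested ligands and the counts of called genes were recomputed under 21 alternatives fixed with the design and 1 added after seeing the data (rescaling without small RNAs and the 100 highest genes at an unchanged mean level, since the planned rescaling to a fixed total lifted all values and brought 21469 genes past the filter). Bmp3, Gdf5, Gdf10, Bmp6, Bmp2, Bmp7 and Bmp5 kept their direction in each fit that tested them. Bmp4 was tested in 17 of the 22 and Bmp8a in 20. Shares, ratios, sums and level orders were not recomputed. Bmp4 and Bmp8a turned to 0.048 and 0.052 on the log2 scale without both libraries numbered 16, and otherwise reached down to -0.39 (without RR 11) and -0.68 (without both numbered 11) when libraries were left out. Bmp3 passed in 21 of 22 fits, missing only without both libraries numbered 14 (adjusted p = 0.0501), Gdf10 in 14 of 22, Gdf5 in 11 of 22 and Bmp6 in 5 of 22 (adjusted p from 0.0104 to 0.487).

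The count of 2 lower ligands became 1, with Gdf5 lost, without a filter, with a filter set to 5 FPKM, after quantile normalization, and with no intensity trend (adjusted p of Gdf5 0.0779, 0.0821, 0.0519 and 0.0670). Without an intensity trend 0 ligands were higher, with 46 genes higher and 37 lower in all. With robust eBayes or library weights 2 ligands were higher, Gdf10 and Bmp6 (adjusted p of Bmp6 0.0494 and 0.0396). Without 1 library, or both of a number, the ligand counts ran from 0 to 1 higher and 0 to 2 lower, and those of all genes from 6 to 56 higher and 2 to 35 lower. The 1 higher ligand without FP 11 was Bmp6. Rescaling without small RNAs and the 100 highest genes moved the median change of all genes from 0.017 to -0.12 at an unchanged mean level and to -0.22 at the fixed total (69 higher and 72 lower), with Gdf10 at 2.95 and 2.99, Bmp3 at -4.14 and -4.56 and Gdf5 at -2.58 and -3.32.

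The library numbers were not taken to pair the samples. Deviations from the group means correlated, across genes, at 0.319, 0.185 and 0.089 between FP and RR libraries numbered 11, 14 and 16. The last was under 0.1, the limit chosen for pairing, although each FP library correlated best with its own number. The consensus correlation within a number was 0.364, so these values do not settle whether the samples are paired. With the number as a replicate block 160 genes were higher and 111 lower, and 2 ligands were higher, Gdf10 (adjusted p = 0.00697) and Bmp6 (0.0127). As a random replicate block 241 were higher and 171 lower, again with 2 higher ligands (adjusted p of Bmp6 0.0104). The Bmp6 call thus depended on this choice, since Bmp6 missed the threshold in the main fit (limma adjusted p = 0.0758). The BMP targets called higher went from 2 to 4 with the fixed replicate block, among them Id1 and Id2 (adjusted p = 0.0174 and 0.0217), and to 5 with the random one, which also called 3 SMAD and feedback genes and 1 convertase higher. Bmp4, Bmp8a and Gdf6, Gdf5 and Bmp5 in FP, and Bmp6 in RR rested on few fragments per library, which limits their precision.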
